A study of Homo sapiens with 12 samples.

Results

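This account covers 161 numbered zinc finger genes, those whose symbol is ZNF followed by a number, with a mean of at least 4 over the 12 deposited log2 columns. They are 161 of 434 such rows in a table of 15090 genes. They were chosen by their mean over all 12 libraries, so their level is a description. No contrast between groups entered this rule, though the members were chosen with earlier results of these data known. Just inside the level were ZNF696 at 4.01, ZNF551 at 4.02 and ZNF254 at 4.02, and just outside were ZNF343 at 3.995, ZNF304 at 3.99 and ZNF627 at 3.99 on the deposited log2 scale. All 161 passed the filter on low values used for testing, and each had at least 247 reads in every library. Of the 273 numbered genes below the level, 257 were tested.

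The RNA came from MIA PaCa-2, an established human pancreatic carcinoma cell line labelled wild type, which was kept in glutamine-free medium to which L-glutamine was added back. The 4 groups of 3 libraries were 2 mM glutamine without gemcitabine, 2 mM with 0.5 µM gemcitabine, 40 mM without it and 40 mM with 0.5 µM, all at 48 h. Gemcitabine is a deoxycytidine analogue that blocks DNA synthesis, and the title of the series concerns amino acid transport and chemosensitivity under high glutamine. The series text calls the 3 libraries of a group biological replicates. Reads in listed genes ran from 21723094 to 32811746 per library. The keratins KRT8, KRT18 and KRT19 and vimentin (VIM) were present in every library, with VIM at 2944 to 3488 scaled reads per 1000000 (RPM). Of 7 markers sought for the line these 4 were listed, while CDH1, EPCAM and CDKN2A were not. Of the markers of other cells, none of 4 acinar and 3 endocrine ones was listed. COL1A1, CD14 and CDH5, the only listed markers of fibroblasts, leukocytes and endothelium, stayed at or below 1.61 RPM. In bulk RNA, fewer cells of a kind and less RNA per cell cannot be told apart.

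Most numbered ZNF genes encode proteins with a row of C2H2 zinc fingers, each a short loop held by 2 cysteines and 2 histidines that can read a few bases of DNA. Many also carry a KRAB box, which binds TRIM28 and through it the histone methyltransferase SETDB1 and heterochromatin proteins. KRAB zinc finger genes are known for silencing transposable elements, and they sit in clusters of duplicated relatives, above all on chromosome 19. Other members have no KRAB box and work in transcription, RNA processing, mitosis or translation.

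The 161 genes had a median of 9 fingers, counted by the C2H2 pattern in the translated GENCODE release 29 transcript, with a range of 0 to 31. A KRAB pattern was found in 66 of them, with a median of 13 fingers, and 30 of these 66 lay on chromosome 19. The other 95 had a median of 7 fingers, and 16 lay on chromosome 19. A pattern search can miss a diverged box, so these counts describe the pattern. Transcripts of the 161 genes had a median GC content of 43.9% and a median length of 4189 bases, against 49.1% and 3247 bases for tested genes of the same level (a mean of 4 or more). Levels were modest, from 15.1 to 317 RPM with a median of 26.4. Per kilobase of transcript, ZNF207, a mitotic spindle protein, was highest at 112 RPM, followed by ZNF217, a breast cancer oncoprotein of corepressor complexes, at 54.7 and ZNF768 at 43.5. The lowest per kilobase were ZNF264 at 1.62, ZNF431 at 1.49 and ZNF26 at 1.13 RPM. In raw RPM the lead belonged to ZNF217, ZNF207 and ZNF664, and the lowest were ZNF696, ZNF254 and ZNF551.

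Gemcitabine at 2 mM glutamine lowered 40 of the 161 genes and raised 17, and 104 did not pass the test. All calls use limma with Benjamini-Hochberg adjustment over 12789 genes and a threshold of 0.05, and fold changes are on the log2(RPM + 1) scale with their standard error (SE, n = 3 libraries a group). Among all genes tested, 34.6% were called in this comparison, 17.5% higher and 17.1% lower, and among genes of the same level 42.4% were called, 21.1% higher and 21.2% lower. The median change of the 161 genes was -0.04, against 0.00 in genes of the same level. At 40 mM the drug lowered 24 and raised 11, with 126 not called, where 30.3% of all genes tested (14.1% higher, 16.2% lower) and 36.9% of genes of the same level (14.9% higher, 22.0% lower) were called. That median was -0.05, against -0.02. Without the scaling factors of the deposited values the split at 40 mM became 20 higher and 16 lower. The count of 17 at 2 mM fell to 11 without replicate 2 at 2 mM without the drug.

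Glutamine at 40 mM against 2 mM moved fewer members in the absence of the drug, with 11 higher and 4 lower, where 17.5% of all genes tested (8.41% higher, 9.12% lower) and 22.6% of genes of the same level (11.1% higher, 11.5% lower) were called. In drug-treated cells 27 were higher and 8 lower, where 21.6% of all genes tested were called, 8.62% higher and 13.0% lower, and 28.6% of genes of the same level, 10.1% higher and 18.5% lower. The median change of the members was 0.01 without the drug and 0.05 with it, and the first changed sign without replicate 2 at 2 mM without the drug and when the trend on GC content, length and level was taken out. Library sums without the scaling factors gave 19 higher and 1 lower without the drug, and 38 higher and 4 lower with it. The 27 rises fell to 17 without replicate 2 and to 15 without replicate 3 at 2 mM with the drug. The 8 falls dropped to 5 without replicate 1 of that group and to 4 without replicate 2 at 40 mM with the drug. The 4 falls without the drug were 2, 1 and 0 without replicates 1, 2 and 3 at 2 mM, and 2, 2 and 1 without replicates 1, 2 and 3 at 40 mM. Of the 161 genes, 72 were called in none of the 4 pairwise comparisons, 48 in 1, 29 in 2 and 12 in 3. Any drug comparison and any glutamine comparison share the libraries of 1 group, so such calls of the same gene are not separate results.

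**Figure D1:**
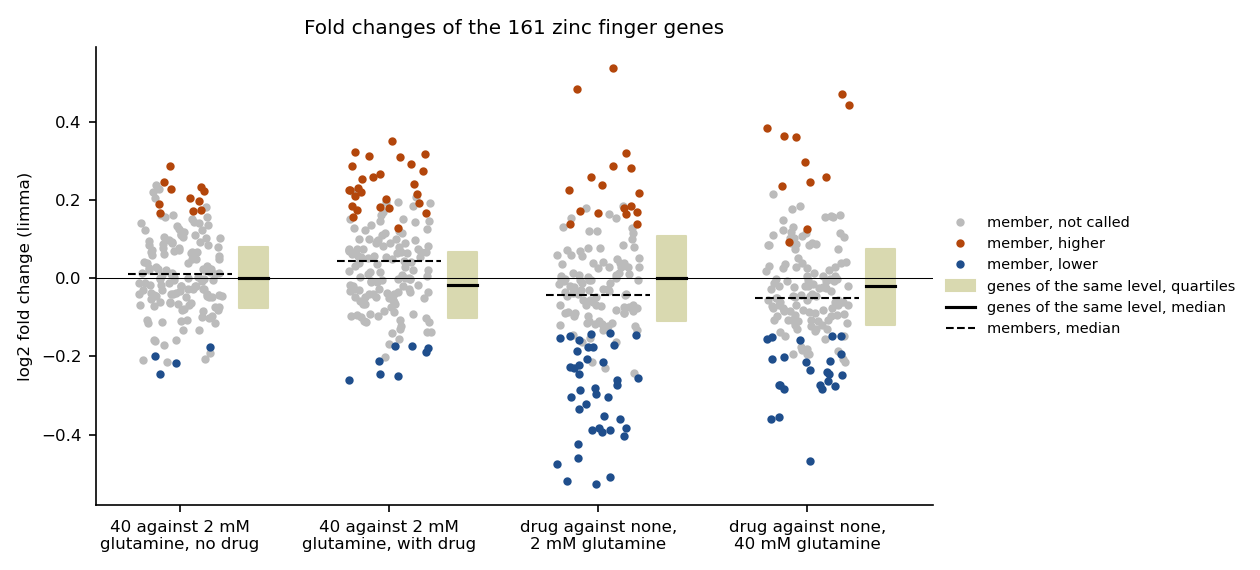
Log2 fold change (vertical axis) of each of the 161 zinc finger genes in the 4 pairwise comparisons (horizontal axis). Points are genes, coloured by call, dashed lines their median, and the bars beside them the median and quartiles of the 8262 tested genes of the same level; called falls outnumber called rises under the drug, 40 to 17 at 2 mM and 24 to 11 at 40 mM. These are 24.8% and 10.6%, then 14.9% and 6.83%. In genes of the same level they are 21.2% and 21.1%, then 22.0% and 14.9%. Without the scaling factors the split at 40 mM was 16 falls and 20 rises.

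Among genes with a KRAB pattern, called falls under the drug outnumbered called rises, though not at 40 mM without the scaling factors. At 2 mM, 20 of 66 fell and 4 rose, with a median of -0.09, while among the 95 without the pattern 20 fell and 13 rose, with a median of -0.01. With the pattern 30.3% were lower and 6.06% higher, and without it 21.1% and 13.7%. Among genes of the same level 21.2% were lower and 21.1% higher. The 4 rises became 1 without replicate 2 at 2 mM without the drug or replicate 1 at 2 mM with it, and the 20 falls of the second list became 11 without replicate 1 at 2 mM without the drug and 12 without replicate 2 at 2 mM with it. At 40 mM, 9 of 66 fell and 4 rose, against 15 and 7 of 95, and the 9 became 5 without replicate 1 at 40 mM without the drug. Without the scaling factors genes with the pattern gave 5 falls and 6 rises, and those without it 11 and 14. With the factors the falls at 40 mM were 13.6% and 15.8%, both under the 22.0% lower among genes of the same level. The rises were 6.06% and 7.37%, against 14.9%. By position, 17 of 46 members on chromosome 19 fell at 2 mM and 3 rose, the 3 becoming 1 without replicate 1 at 2 mM without the drug, against 23 and 14 of 115 on other chromosomes. The 257 tested numbered genes below the level, which the rule left out, gave 44 falls and 7 rises at 2 mM, with a median of -0.10, and the 44 became 25 without replicate 1 at 2 mM without the drug. Those were 17.1% lower and 2.72% higher, where 17.1% of all genes tested were lower and 17.5% higher. All genes tested include those of the members' level, which were called more often. Shares among all tested genes below the level were not computed, so the equal 17.1% is not a comparison at like level. No test of the difference between these lists was run.

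The members that fell and rose at 2 mM also differed in transcript make-up. The 40 that fell had a median GC content of 42.2% and a median of 2936 bases after the stop codon, against 51.8% and 840 bases for the 17 that rose. This overlaps with the KRAB split, since 20 of the 40 and 4 of the 17 carried the pattern. All members with the pattern had a median GC content of 42.2%, against 49.7% for those without it. At 40 mM the order of GC content was the opposite, 50.5% for the 24 that fell against 40.8% for the 11 that rose, with 1947 and 879 bases after the stop codon. At 2 mM, with the trend of fold change on level, GC content and length removed, 38 were lower and 18 higher. Single calls at 2 mM that ended with this trend removed were those of ZNF148 (-0.09, adjusted p = 0.127), ZNF445 (-0.09, adjusted p = 0.275) and ZNF84 (-0.11, adjusted p = 0.119), among the genes named here. Whether transcript make-up itself has a part in these changes was not tested.

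Rises under the drug were led by ZNF367. ZNF367 read 35.0, 39.1 and 32.2 RPM at 2 mM without the drug and 50.1, 52.4 and 52.6 with it, and 43.9, 43.0 and 43.0 RPM at 40 mM without the drug and 58.7, 53.8 and 55.1 with it. Every drug-treated library lay above every untreated one at the same glutamine level. The rise was 0.54 ± 0.0575 (adjusted p = 3.68e-09) at 2 mM and 0.36 ± 0.0575 (adjusted p = 7.57e-06) at 40 mM. Without the drug, the 3 libraries at 40 mM also lay above those at 2 mM, by 0.29 ± 0.0575 (adjusted p = 0.000493). ZNF551, a KRAB zinc finger gene of chromosome 19, was among the lowest members. ZNF551 read 13.1, 11.6 and 12.01 RPM at 2 mM without the drug and 17.3, 18.2 and 16.9 with it, and 14.3, 13.5 and 16.1 RPM at 40 mM without the drug and 16.2, 18.8 and 16.4 with it. Its groups at 2 mM did not overlap, and it rose by 0.48 ± 0.0872 (adjusted p = 4.59e-05), while at 40 mM the difference was 0.21 ± 0.0872 (adjusted p = 0.061), a value that passed the threshold without the scaling factors and without replicate 3 at 40 mM without the drug. ZNF672 rose at 2 mM by 0.32 ± 0.0823 (adjusted p = 0.00251), and ZNF618 by 0.29 ± 0.0816 (adjusted p = 0.0062), a call that ended without replicate 3 at 2 mM without the drug (0.22, adjusted p = 0.0515). At 40 mM ZNF618 rose by 0.26 ± 0.0816 (adjusted p = 0.0144), which ended without replicate 1 at 40 mM without the drug or replicate 1 at 40 mM with the drug (0.16 to 0.21, adjusted p from 0.0888 to 0.163).

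Several risers have roles outside gene silencing. ZNF326 belongs to a complex that links splicing to transcript elongation. ZNF326 read 59.5, 61.5 and 57.2 RPM at 2 mM without the drug and 68.8, 70.7 and 74.4 with it, and 67.7, 68.4 and 67.5 RPM at 40 mM without the drug and 73.1, 76.5 and 72.9 with it. Its drug-treated libraries lay above the untreated ones at both glutamine levels, by 0.26 ± 0.0446 (adjusted p = 2.22e-05) at 2 mM and by 0.13 ± 0.0446 (adjusted p = 0.0297) at 40 mM, the second ending without replicates 1 or 3 at 40 mM without the drug or replicate 2 at 40 mM with the drug (0.10 to 0.13, adjusted p from 0.063 to 0.135). It also rose with glutamine alone, by 0.19 ± 0.0446 (adjusted p = 0.00251). ZNF207, which helps chromosomes attach to the spindle through BUB3, rose at 2 mM from 206 ± 7.07 to 227 ± 3.17 RPM (mean ± SD, n = 3), a change of 0.14 ± 0.0336 (adjusted p = 0.00159). At 40 mM its rise of 0.09 ± 0.0336 (adjusted p = 0.0362) ended without replicates 1 or 2 at 40 mM without the drug or replicates 2 or 3 at 40 mM with the drug (0.07 to 0.10, adjusted p from 0.0511 to 0.181). ZNF598, the ubiquitin ligase that marks collided ribosomes, rose at 2 mM from 73.3 ± 5.83 to 86.4 ± 3.38 RPM, by 0.24 ± 0.0494 (adjusted p = 0.000279). ZNF687 and ZNF592, partners in a ZMYND8 complex, rose at 2 mM by 0.17 ± 0.0469 (adjusted p = 0.00536) and 0.17 ± 0.0511 (adjusted p = 0.00929), the second call ending without replicate 2 at 2 mM without the drug (0.14, adjusted p = 0.052).

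At 40 mM the rises were led by a group of relatives of ZNF107. ZNF107 read 38.0, 40.1 and 37.5 RPM at 2 mM without the drug and 47.0, 47.9 and 46.1 with it, and 39.2, 40.0 and 38.3 RPM at 40 mM without the drug and 53.6, 56.4 and 50.8 with it. No drug-treated library overlapped an untreated one at the same glutamine level, and the rise was 0.28 ± 0.0527 (adjusted p = 7.64e-05) at 2 mM and 0.44 ± 0.0527 (adjusted p = 3.40e-08) at 40 mM. Drug-treated cells had more at 40 than at 2 mM glutamine, by 0.19 ± 0.0527 (adjusted p = 0.0098), which ended without replicate 2 at 40 mM with the drug and with the trend removed (0.13 to 0.15, adjusted p from 0.0781 to 0.0822). ZNF267, on chromosome 16, had the largest rise of any member at 40 mM. ZNF267 read 17.7, 15.8 and 17.8 RPM at 2 mM without the drug and 20.9, 19.2 and 20.2 with it, and 15.3, 14.9 and 14.8 RPM at 40 mM without the drug and 22.3, 21.4 and 19.98 with it. The groups at 40 mM were far apart, by 0.47 ± 0.0777 (adjusted p = 1.32e-05), while the rise at 2 mM of 0.23 ± 0.0777 (adjusted p = 0.0229) ended without replicate 2 at 2 mM without the drug or replicates 1 or 3 at 2 mM with the drug (0.17 to 0.22, adjusted p from 0.0635 to 0.122). ZNF92, a neighbour of ZNF107 on chromosome 7, rose at 40 mM by 0.38 ± 0.0786 (adjusted p = 0.000266), and at 2 mM by 0.22 ± 0.0786 (adjusted p = 0.0305), which ended without replicates 1 or 2 at 2 mM without the drug or replicate 1 at 2 mM with the drug (0.13 to 0.23, adjusted p from 0.0543 to 0.271). Its neighbours ZNF138 and ZNF680 also rose at 40 mM by 0.36 ± 0.0903 (adjusted p = 0.00208) and 0.30 ± 0.0704 (adjusted p = 0.00126), with 2 mM values of 0.10 ± 0.0903 (adjusted p = 0.419) and -0.02 ± 0.0704 (adjusted p = 0.892). ZNF138 had 1 high library with the drug, 22.8 RPM against 17.9 and 16.9 in the others, and its groups did not overlap at 40 mM. Other tested genes of this stretch of chromosome 7 were not called under the drug at 40 mM, with 0.11 ± 0.0619 (adjusted p = 0.184) for the member ZNF736, -0.15 ± 0.132 (adjusted p = 0.417) for ERV3-1 and -0.04 ± 0.152 (adjusted p = 0.887) for CCT6P3, while ZNF273 is given with the non-members that share letters.

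The promoters of these genes share letters. Those of ZNF107, ZNF680, ZNF92 and ZNF267 are shown because these genes rose under the drug at 40 mM, and that of ZNF91, which was not called there, because it shares the letters and its response differed between glutamine levels. Promoters here are 250 bases before to 50 after the start in RefSeq (GRCh38.p14), and 141 of 161 members had one. Capitals in ZNF680, ZNF92, ZNF267 and ZNF91 mark runs of at least 12 bases that also stand in the ZNF107 promoter. In ZNF107 they mark the runs shared with at least 5 of 9 related promoters. All are written 5′ to 3′ on the strand of the gene.
ZNF107: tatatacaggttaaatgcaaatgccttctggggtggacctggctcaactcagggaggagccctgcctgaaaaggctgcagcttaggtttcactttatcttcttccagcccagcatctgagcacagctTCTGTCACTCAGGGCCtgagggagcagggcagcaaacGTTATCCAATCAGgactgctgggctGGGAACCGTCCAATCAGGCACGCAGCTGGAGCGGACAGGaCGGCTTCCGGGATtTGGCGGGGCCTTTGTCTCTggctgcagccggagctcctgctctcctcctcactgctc
ZNF680: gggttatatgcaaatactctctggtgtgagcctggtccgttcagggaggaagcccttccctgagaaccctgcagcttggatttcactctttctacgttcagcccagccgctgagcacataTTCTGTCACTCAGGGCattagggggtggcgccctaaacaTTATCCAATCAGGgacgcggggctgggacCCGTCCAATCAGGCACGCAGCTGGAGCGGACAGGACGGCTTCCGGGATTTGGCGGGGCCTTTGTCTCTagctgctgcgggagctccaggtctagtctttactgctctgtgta
ZNF92: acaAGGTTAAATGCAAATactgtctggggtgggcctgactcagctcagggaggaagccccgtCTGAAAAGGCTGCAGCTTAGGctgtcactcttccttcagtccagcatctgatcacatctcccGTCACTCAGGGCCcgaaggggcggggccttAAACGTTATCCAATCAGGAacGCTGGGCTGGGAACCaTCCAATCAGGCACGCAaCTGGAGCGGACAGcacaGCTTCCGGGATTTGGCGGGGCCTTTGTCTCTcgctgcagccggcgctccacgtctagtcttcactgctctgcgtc
ZNF267: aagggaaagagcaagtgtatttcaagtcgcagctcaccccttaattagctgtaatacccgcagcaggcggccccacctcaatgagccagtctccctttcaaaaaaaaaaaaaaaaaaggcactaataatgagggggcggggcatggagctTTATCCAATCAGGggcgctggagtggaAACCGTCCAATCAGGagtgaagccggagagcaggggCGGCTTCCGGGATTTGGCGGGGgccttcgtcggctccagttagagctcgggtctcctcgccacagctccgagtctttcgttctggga
ZNF91: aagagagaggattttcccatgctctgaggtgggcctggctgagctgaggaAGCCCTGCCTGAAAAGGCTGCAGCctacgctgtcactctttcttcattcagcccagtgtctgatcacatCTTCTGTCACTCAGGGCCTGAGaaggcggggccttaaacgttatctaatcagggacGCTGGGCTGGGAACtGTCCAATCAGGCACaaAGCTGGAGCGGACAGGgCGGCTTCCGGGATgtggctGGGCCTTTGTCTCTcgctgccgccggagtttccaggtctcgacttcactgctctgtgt
Each of the 5 holds CCAAT, the letters of a CCAAT box, and CCGGAAG, the core letters read by ETS factors, on one strand or the other. ZNF107 is at chr7:64665883-64666182 (plus strand), ZNF680 at chr7:64563022-64563321 (minus), ZNF92 at chr7:65373605-65373904 (plus), ZNF267 at chr16:31873557-31873856 (plus) and ZNF91 at chr19:23395422-23395721 (minus).

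In 9 other members an unbroken run of at least 20 bases matched the ZNF107 promoter, from 21 bases in ZNF195 to 68 in ZNF680, while the other 131 members with a promoter shared 7 to 19. The next longest runs, under that limit, were 19 bases in ZNF254 and 18 in ZNF736. Neither gene was called under the drug at 40 mM (-0.11 and 0.11). These 10 genes lie on chromosomes 7, 11, 16 and 19, and they were grouped after the values of ZNF107 and its neighbours had been seen. All 10 hold CCAAT on one strand or the other, and 9 hold CCGGAAG. At 40 mM the drug raised 5 of the 10 and lowered 0, with a median of 0.23, and in each of the 20 alternative settings 5 or 6 rose. These 5 include ZNF107 and neighbours whose values had been seen before the grouping, so their count is no test of the shared letters. ZNF431 (0.12), ZNF714 (0.16), ZNF430 (0.11), ZNF195 (0.09) and ZNF91 (-0.08) were not called at 40 mM. Of all genes tested 14.1% were higher there, and of genes of the same level 14.9%. Among the other 151 members 6 rose and 24 fell, with a median of -0.06. At 2 mM 3 of the 10 rose and 1 fell, with a median of 0.11, and the 3 became 1 without replicate 2 at 2 mM without the drug or replicate 1 at 2 mM with it. Glutamine changed 0 of the 10 without the drug. With the drug it raised 4, which became 2 without replicate 2 at 2 mM with the drug or replicates 2 or 3 at 40 mM with it, and 1 with the trend removed.

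The same rule of letters found 20 genes that are not members, of which 10 were tested, all of them numbered ZNF genes below the level. Relatives of ZNF107, non-members included, were named after their values were seen, and ZNF273 is a neighbour of ZNF107. These 10 are therefore no separate test of the grouping. At 40 mM 4 of these 10 rose and 0 fell, with a median of 0.22. ZNF273, which lies between ZNF138 and ZNF92, rose by 0.48 ± 0.0882 (adjusted p = 6.00e-05), and the others that rose were ZNF669, ZNF675 and ZNF724. The count was 1 without replicate 1 at 40 mM with the drug, and 2 without replicate 1 at 2 mM without the drug, replicates 1 or 3 at 2 mM with it, replicate 3 at 40 mM without it or replicate 2 at 40 mM with it. It was also 2 with no filter, with quantile normalization, with the replicate block and with the trend removed. At 2 mM 2 rose and 3 fell, and the 2 became 1 without replicate 3 at 2 mM without the drug or replicate 1 at 2 mM with it. Close relatives share stretches of sequence in their transcripts as well, so the assignment of reads among them is uncertain.

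**Figure D2:**
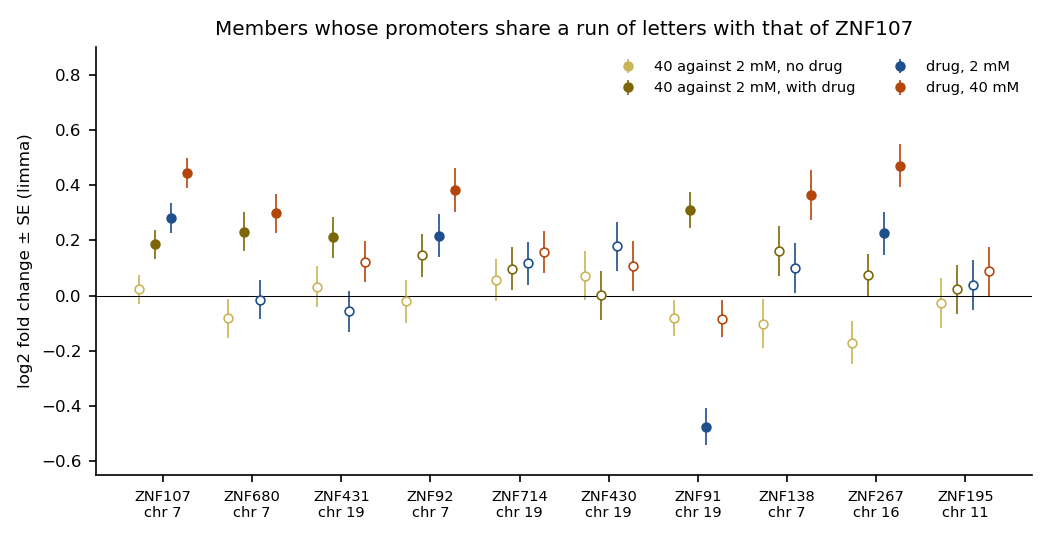
Log2 fold change (vertical axis, bars are the SE) of the 10 members whose promoter shares a run of at least 20 bases with that of ZNF107, in the 4 pairwise comparisons. Genes run from the longest to the shortest run, filled points passed the test and open points did not; at 40 mM the drug raised ZNF107, ZNF680, ZNF92, ZNF138 and ZNF267, and ZNF91 fell at 2 mM.

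The promoter of ZNF367 shares no such run and is shown for contrast, as the promoter of the gene that rose most at 2 mM. It lies at chr9:96418321-96418620 on the minus strand of GRCh38.p14. Capitals mark 2 CCAAT boxes, 2 GC boxes (GGGCGG) and 1 E2F-like motif (TTTCCCGC), each on either strand.
ZNF367: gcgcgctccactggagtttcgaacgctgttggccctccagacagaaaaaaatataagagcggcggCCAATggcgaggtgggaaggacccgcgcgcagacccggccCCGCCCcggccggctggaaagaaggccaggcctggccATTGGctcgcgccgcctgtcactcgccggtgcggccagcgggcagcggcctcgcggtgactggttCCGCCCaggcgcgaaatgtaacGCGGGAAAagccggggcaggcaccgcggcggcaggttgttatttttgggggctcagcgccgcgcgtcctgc
The E2F-like motif was in 4.26% of the 141 member promoters and in 3.90% of promoters of genes of the same level, and this form was added to the search after the ZNF367 sequence had been seen. The other E2F form searched, TTTGGCGC, was in 2.13% and 1.49%. The ETS motif CCGGAAG was in 65 of 141 member promoters (46.1%), against 25.4% of promoters of genes of the same level and 12.2% of all RefSeq promoters in the table. CCAAT was in 46.8% of members and 43.4% of genes of the same level, and the GC box in 69.5% and 79.9%. The E-box CACGTG was in 7.09% and 13.5%, and the TATA box TATAAA in 4.26% and 7.19%. The interferon-stimulated response element was in 2.13% and 3.48%, and the cAMP element TGACGTCA in 6.38% and 4.26%. Both strands were searched, and a match of letters is no evidence of binding.

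Falls under the drug were led in level by ZNF217, the most abundant member. ZNF217 read 359.7, 350.2 and 345 RPM at 2 mM without the drug and 266, 252 and 267 with it, and 350.4, 377 and 349 RPM at 40 mM without the drug and 298, 293 and 297 with it. The 6 treated libraries lay below the 6 untreated ones. It fell by 0.42 ± 0.0322 (adjusted p = 1.56e-12) at 2 mM and by 0.27 ± 0.0322 (adjusted p = 2.84e-08) at 40 mM. In drug-treated cells it was higher at 40 than at 2 mM glutamine, by 0.18 ± 0.0322 (adjusted p = 0.000109). The difference between the drug responses was 0.15 ± 0.0456 (adjusted p = 0.0751), which passed the threshold without the scaling factors, with quantile normalization, with robust moderation, with the trend removed and without replicate 2 at 40 mM without the drug.

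ZNF703, a corepressor amplified in luminal breast cancer, had its largest fall at 40 mM. ZNF703 read 39.8, 41.7 and 39.8 RPM at 2 mM without the drug and 32.7, 32.7 and 32.3 with it, and 45.5, 47.3 and 47.6 RPM at 40 mM without the drug and 32.3, 35.9 and 32.6 with it. The treated libraries lay together at both glutamine levels, and the untreated ones were higher at 40 mM. The falls were -0.30 ± 0.0558 (adjusted p = 5.55e-05) at 2 mM and -0.47 ± 0.0558 (adjusted p = 3.70e-08) at 40 mM, and glutamine alone raised the gene by 0.21 ± 0.0558 (adjusted p = 0.00895). ZNF488 fell at 40 mM by 0.36 ± 0.0547 (adjusted p = 3.42e-06), from 47.7 ± 1.73 to 37.0 ± 2.16 RPM. Its fall at 2 mM, -0.15 ± 0.0547 (adjusted p = 0.0372), ended without replicates 1 or 3 at 2 mM without the drug or replicates 2 or 3 at 2 mM with the drug (-0.16 to -0.11, adjusted p from 0.0536 to 0.186). ZNF862 fell at both levels of glutamine. ZNF862 read 16.6, 17.8 and 19.1 RPM at 2 mM without the drug and 13.2, 11.5 and 12.1 with it, and 18.8, 21.2 and 17.8 RPM at 40 mM without the drug and 14.7, 15.4 and 14.4 with it. The groups did not overlap at either level, with changes of -0.51 ± 0.0861 (adjusted p = 1.87e-05) and -0.35 ± 0.0861 (adjusted p = 0.00169). ZNF33A, a KRAB gene with a near-identical relative in ZNF33B, fell by 0.46 ± 0.0804 (adjusted p = 2.90e-05) and 0.28 ± 0.0804 (adjusted p = 0.00823). The relative was lower as well, by 0.38 ± 0.0846 (adjusted p = 0.000568) at 2 mM, and reads of this pair may not be told apart. ZNF638, which takes part in silencing unintegrated retroviral DNA, fell by 0.18 ± 0.0429 (adjusted p = 0.00147) at 2 mM and by 0.16 ± 0.0429 (adjusted p = 0.00464) at 40 mM, where the call ended without replicate 2 at 40 mM with the drug (-0.13, adjusted p = 0.0506).

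Further falls at 40 mM were those of the KRAB genes ZNF778, by 0.28 ± 0.0777 (adjusted p = 0.00513), and ZNF558, by 0.28 ± 0.0824 (adjusted p = 0.00825), the second ending without replicate 2 at 40 mM with the drug (-0.24, adjusted p = 0.0519). At 2 mM ZNF558 fell by 0.30 ± 0.0824 (adjusted p = 0.00413). ZNF322 was lowered at 2 mM. ZNF322 read 20.9, 21.0 and 21.6 RPM at 2 mM without the drug and 15.7, 15.2 and 12.5 with it, and 16.1, 18.6 and 18.6 RPM at 40 mM without the drug and 16.1, 16.2 and 15.7 with it. The untreated libraries at 2 mM stood above all 9 others, and the drug response there was -0.53 ± 0.0849 (adjusted p = 8.45e-06), against -0.14 ± 0.0849 (adjusted p = 0.234) at 40 mM, and the difference between the responses was 0.39 ± 0.120 (adjusted p = 0.0814). ZNF605 fell at 2 mM by 0.32 ± 0.0780 (adjusted p = 0.00149).

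**Figure D3:**
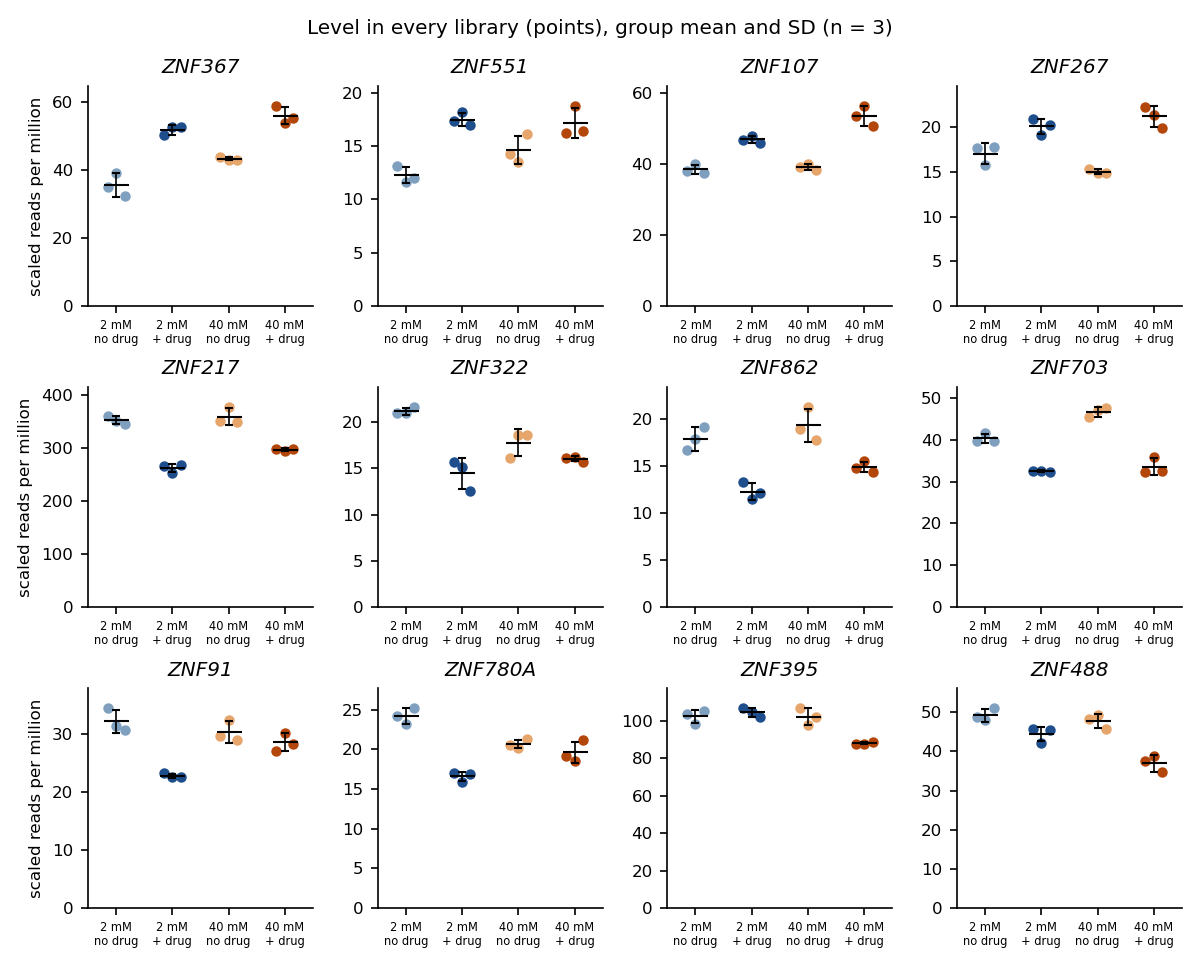
Scaled reads per 1000000 (vertical axis, from 0) of 12 zinc finger genes in every library of the 4 groups, with the group mean and SD (n = 3). Points are libraries; the drug-treated libraries of ZNF367 and ZNF107 lie above and those of ZNF217, ZNF862 and ZNF703 below the untreated ones at both glutamine levels, and ZNF91 and ZNF780A are lowest at 2 mM with the drug.

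Drug responses at 2 and 40 mM glutamine rest on separate libraries. Of the 17 members raised at 2 mM and the 11 at 40 mM, 7 were in both lists, 41.2% of the first and 63.6% of the second, and they were ZNF92, ZNF107, ZNF207, ZNF267, ZNF326, ZNF367 and ZNF618. Of the 40 and 24 that fell, 14 were in both, 35.0% and 58.3%. No member was called in opposite directions. Across the 161 genes the 2 sets of fold changes had a Pearson r of 0.64 and a Spearman rho of 0.61, as a description over genes, which are not independent and share level and depth.

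**Figure D4:**
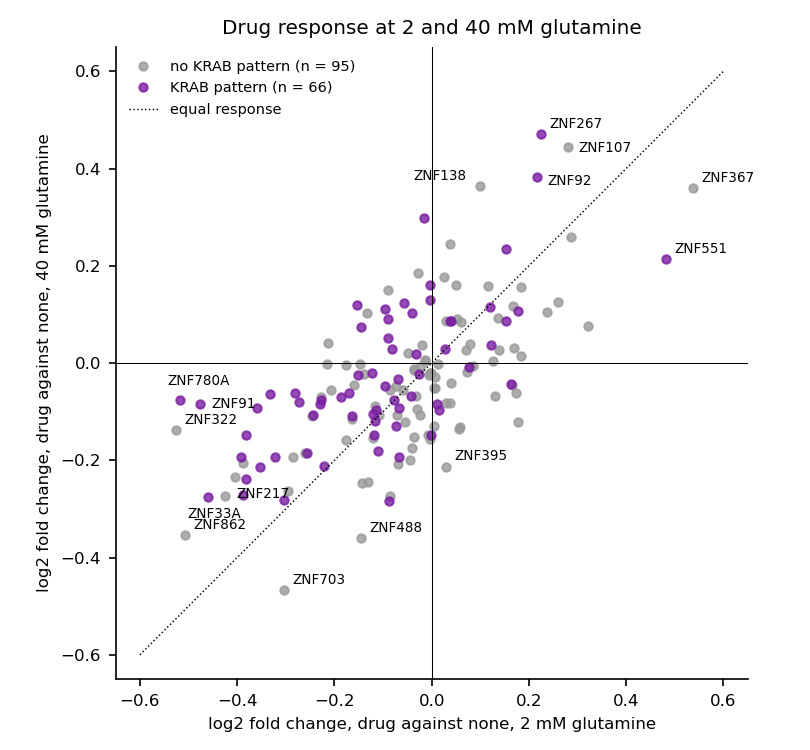
Log2 fold change under the drug at 2 mM (horizontal axis) and 40 mM glutamine (vertical axis) of the 161 genes, with the KRAB pattern in colour. Points are genes and the dotted line marks equal responses; 14 genes fell and 7 rose in both, and ZNF91 and ZNF780A lie far to the left near 0 on the vertical axis.

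The drug response differed between glutamine levels for 3 of the 161 genes, 2 with a less negative response at 40 mM and 1 with a more negative one, or 4 and 0 without the scaling factors. Among all genes tested 2.2% were called for this difference (0.727% higher, 1.47% lower), and among genes of the same level 3.15% (0.92% higher, 2.23% lower). ZNF91 is a KRAB gene with 31 fingers that is known to silence SVA elements in primates. ZNF91 read 34.4, 31.3 and 30.6 RPM at 2 mM without the drug and 23.2, 22.6 and 22.6 with it, and 29.6, 32.4 and 28.9 RPM at 40 mM without the drug and 27.1, 30.2 and 28.3 with it. The 3 treated libraries at 2 mM stood below the other 9. ZNF91 fell at 2 mM by 0.48 ± 0.0664 (adjusted p = 7.77e-07), while the change at 40 mM was -0.08 ± 0.0664 (adjusted p = 0.371), and the difference was 0.39 ± 0.0940 (adjusted p = 0.0187). That call ended without replicate 1 at 2 mM without the drug, replicate 2 at 2 mM with the drug, replicate 3 at 40 mM without the drug or replicate 2 at 40 mM with the drug (0.34 to 0.39, adjusted p from 0.0503 to 0.0774). In drug-treated cells ZNF91 was higher at 40 mM than at 2 mM, by 0.31 ± 0.0664 (adjusted p = 0.000805).

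ZNF780A was also lowest in the treated libraries at 2 mM. ZNF780A read 24.2, 23.2 and 25.2 RPM at 2 mM without the drug and 17.0, 15.9 and 16.9 with it, and 20.6, 20.2 and 21.3 RPM at 40 mM without the drug and 19.2, 18.5 and 21.2 with it. It fell at 2 mM by 0.52 ± 0.0741 (adjusted p = 1.17e-06) and changed by -0.08 ± 0.0741 (adjusted p = 0.481) at 40 mM. The difference of 0.44 ± 0.105 (adjusted p = 0.0168) ended without replicate 2 at 2 mM with the drug or replicate 3 at 40 mM with the drug (0.39 to 0.41, adjusted p from 0.0519 to 0.0574). With glutamine alone the value was -0.22 ± 0.0741 (adjusted p = 0.0396), a fall that ended without replicates 1 or 3 at 2 mM without the drug or any 1 replicate at 40 mM without the drug and without the scaling factors (-0.24 to -0.19, adjusted p from 0.0574 to 0.137). With the drug, glutamine gave a rise of 0.23 ± 0.0741 (adjusted p = 0.0255), which ended without replicates 2 or 3 at 2 mM with the drug or replicate 3 at 40 mM with the drug and with the trend removed (0.16 to 0.24, adjusted p from 0.0501 to 0.139). Its near-identical neighbour ZNF780B was not called, at 0.01 ± 0.0817 (adjusted p = 0.913) under the drug at 2 mM, and reads of the pair may have been split between them. ZNF395, a hypoxia-induced gene, went the other way. ZNF395 read 104, 98.3 and 105 RPM at 2 mM without the drug and 107, 105 and 102 with it, and 107, 97.6 and 102 RPM at 40 mM without the drug and 87.6, 87.8 and 88.6 with it. The treated libraries at 40 mM stood below the other 9. It fell there by 0.21 ± 0.0403 (adjusted p = 9.31e-05), against 0.03 ± 0.0403 (adjusted p = 0.612) at 2 mM, a difference of -0.24 ± 0.0570 (adjusted p = 0.0155) that ended without replicate 1 at 2 mM with the drug and without the scaling factors (-0.23 to -0.21, adjusted p from 0.0525 to 0.0578). In drug-treated cells glutamine lowered it by 0.24 ± 0.0403 (adjusted p = 3.07e-05).

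Members raised by glutamine in drug-treated cells were led by ZNF605, ZNF467, ZNF302 and ZNF736. ZNF605 rose by 0.35 ± 0.0780 (adjusted p = 0.00122), from 14.3 ± 0.539 to 18.5 ± 1.54 RPM. ZNF302 and ZNF736 rose by 0.32 ± 0.0748 (adjusted p = 0.00217) and 0.31 ± 0.0619 (adjusted p = 0.000334). ZNF467 rose by 0.32 ± 0.0929 (adjusted p = 0.0111), which ended without replicate 2 at 2 mM with the drug (0.27, adjusted p = 0.0775). ZNF81 rose by 0.29 ± 0.0954 (adjusted p = 0.0251), which ended without replicate 3 at 2 mM with the drug or replicates 1 or 2 at 40 mM with the drug and with the trend removed (0.22 to 0.30, adjusted p from 0.0525 to 0.167). ZNF84, a KRAB gene on chromosome 12, rose by 0.27 ± 0.0561 (adjusted p = 0.000648), and lies in a run of 7 tested zinc finger genes with ZNF605, ZNF26 and ZNF268. Of these members ZNF605 and ZNF268 also rose with glutamine in drug-treated cells, while ZNF26 gave 0.07 (adjusted p = 0.599), and the 3 non-members of the run, ZNF140, ZNF891 and ZNF10, were not called, at 0.21 (adjusted p = 0.080), -0.13 (adjusted p = 0.619) and 0.17 (adjusted p = 0.325). The falls were led by ZNF488 at -0.26 ± 0.0547 (adjusted p = 0.000678), followed by ZNF593 and then ZNF395, whose values are given above. ZNF593 fell by 0.25 ± 0.0799 (adjusted p = 0.0219), ending without replicates 1 or 2 at 2 mM with the drug or replicate 1 at 40 mM with the drug, without the scaling factors and with the trend removed (-0.24 to -0.15, adjusted p from 0.0671 to 0.222). ZNF787 fell by 0.21 ± 0.0564 (adjusted p = 0.00597), ending with the trend removed (-0.13, adjusted p = 0.0683), and ZNF496 by 0.19 ± 0.0484 (adjusted p = 0.00441), ending without replicate 2 at 40 mM with the drug (-0.14, adjusted p = 0.0635). ZNF263 fell by 0.18 ± 0.0618 (adjusted p = 0.0348), ending without replicates 2 or 3 at 2 mM with the drug or replicates 2 or 3 at 40 mM with the drug, without the scaling factors and with the trend removed (-0.17 to -0.13, adjusted p from 0.0552 to 0.141).

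Without the drug, the largest rise with glutamine was that of ZNF367, given above. ZNF268, a KRAB gene with 24 fingers, rose by 0.25 ± 0.0728 (adjusted p = 0.0166), a call that ended without replicate 2 at 2 mM without the drug (0.17, adjusted p = 0.137). In drug-treated cells it rose by 0.22 ± 0.0728 (adjusted p = 0.0267), ending without replicates 2 or 3 at 2 mM with the drug or replicates 1 or 3 at 40 mM with the drug and with the trend removed (0.15 to 0.23, adjusted p from 0.0591 to 0.153). ZNF622, a factor in the maturation of the large ribosomal subunit, rose by 0.23 ± 0.0698 (adjusted p = 0.018), ending without replicate 1 at 2 mM without the drug or replicate 2 at 40 mM without the drug (0.19 to 0.20, adjusted p from 0.081 to 0.0909). ZNF398 rose by 0.23 ± 0.0671 (adjusted p = 0.0152), ending without replicate 3 at 40 mM without the drug (0.22, adjusted p = 0.0548), and ZNF605 by 0.22 ± 0.0780 (adjusted p = 0.0446), ending without any 1 replicate at 2 mM without the drug, replicates 2 or 3 at 2 mM with the drug or any 1 replicate at 40 mM without the drug, with no filter, with quantile normalization, with the replicate block and with the trend removed (0.20 to 0.24, adjusted p from 0.0508 to 0.13). The 4 falls were ZNF322 at -0.24 ± 0.0849 (adjusted p = 0.043), ending without any 1 replicate at 2 mM without the drug or replicates 1 or 3 at 40 mM without the drug, without the scaling factors and with no filter (-0.28 to -0.18, adjusted p from 0.0515 to 0.202), ZNF274 at -0.20 ± 0.0637 (adjusted p = 0.0266), ending without replicates 2 or 3 at 2 mM without the drug or replicates 2 or 3 at 40 mM without the drug (-0.20 to -0.17, adjusted p from 0.0657 to 0.0929), ZNF587 at -0.17 ± 0.0571 (adjusted p = 0.0303), ending without replicates 2 or 3 at 2 mM without the drug or any 1 replicate at 40 mM without the drug and without the scaling factors (-0.18 to -0.15, adjusted p from 0.0515 to 0.109), and ZNF780A. ZNF274 is known to bring SETDB1 to the 3′ ends of other zinc finger genes. Of the 11 and 27 members raised by glutamine without and with the drug, ZNF268, ZNF362, ZNF605 and ZNF644 were in both lists, 36.4% of the first and 14.8% of the second.

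Members with a role of their own form lists of 3 to 7 genes, too short to set against the shares of called genes given above. Of 3 ribosome and translation factors (ZNF593, ZNF622, ZNF598), 1 rose with glutamine alone, 2 fell with glutamine in drug-treated cells and 1 rose with the drug at 2 mM. ZNF598 fell with glutamine in drug-treated cells by 0.17 ± 0.0494 (adjusted p = 0.00973), which ended without replicates 1 or 3 at 2 mM with the drug or replicate 2 at 40 mM with the drug, without the scaling factors and with the trend removed (-0.16 to -0.11, adjusted p from 0.0505 to 0.088). Among 6 genes of mitosis and RNA processing, the drug raised 2 and lowered 2 at 2 mM, namely ZNF207 and ZNF326 against ZNF638 and ZNF318. ZNF318 fell by 0.14 ± 0.0488 (adjusted p = 0.0255), ending without replicate 1 at 2 mM without the drug or replicates 1 or 3 at 2 mM with the drug (-0.13 to -0.12, adjusted p from 0.0836 to 0.115). Of 7 corepressor partners without a KRAB box, 3 rose with glutamine in drug-treated cells, ZNF217, ZNF512 at 0.24 ± 0.0668 (adjusted p = 0.0085) and ZNF532 at 0.25 ± 0.0799 (adjusted p = 0.0206), the last ending without replicates 2 or 3 at 2 mM with the drug or replicate 1 at 40 mM with the drug (0.18 to 0.22, adjusted p from 0.0907 to 0.162). With the drug at 2 mM ZNF592 and ZNF687 rose and ZNF217 and ZNF703 fell. Of the activators ZNF143, ZNF148, ZNF281 and ZNF410, only ZNF148 was called, higher with glutamine in drug-treated cells by 0.18 ± 0.0489 (adjusted p = 0.00674), ending without replicate 1 at 40 mM with the drug (0.13, adjusted p = 0.0811), and lower with the drug at 2 mM by 0.16 ± 0.0489 (adjusted p = 0.0109), ending without replicates 1 or 2 at 2 mM without the drug or replicate 2 at 2 mM with the drug and with the trend removed (-0.14 to -0.09, adjusted p from 0.0523 to 0.127). ZNF410, the activator of CHD4, gave 0.06 ± 0.0608 (adjusted p = 0.484) and -0.13 ± 0.0608 (adjusted p = 0.103) under the drug. ZNF445, which protects imprints, fell with the drug at 2 mM by 0.23 ± 0.0616 (adjusted p = 0.00362), ending with the trend removed (-0.09, adjusted p = 0.275). ZNF24 fell by 0.15 ± 0.0457 (adjusted p = 0.0111), ending without replicate 1 at 2 mM without the drug (-0.12, adjusted p = 0.0844).

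Genes of the machinery through which KRAB zinc fingers silence their targets were called about as often as other genes of the same level with the drug at 2 mM. Of 31 tested corepressor and heterochromatin genes, the drug raised 7 and lowered 7 at 2 mM glutamine, 22.6% each way against 21.1% higher and 21.2% lower among genes of the same level. At 40 mM 7 rose and 7 fell, again 22.6% each way, against 14.9% higher and 22.0% lower, the last count becoming 4 without replicate 3 at 40 mM with the drug. TRIM28, the direct partner of the KRAB box, rose at 2 mM by 0.15 ± 0.0341 (adjusted p = 0.00065) and gave -0.06 ± 0.0341 (adjusted p = 0.192) at 40 mM. UHRF1 and DNMT1, which copy DNA methylation at replication, rose at both levels, UHRF1 by 0.61 ± 0.0366 (adjusted p = 4.25e-15) and 0.29 ± 0.0366 (adjusted p = 1.23e-07) and DNMT1 by 0.29 ± 0.0290 (adjusted p = 1.33e-09) and 0.22 ± 0.0290 (adjusted p = 3.86e-07). ATF7IP, which stabilises SETDB1, fell by 0.31 ± 0.0334 (adjusted p = 4.35e-09) and 0.23 ± 0.0334 (adjusted p = 2.08e-06). SETDB1 itself fell by 0.18 ± 0.0590 (adjusted p = 0.0188) and 0.16 ± 0.0590 (adjusted p = 0.0362). TASOR, of the HUSH silencing complex, fell by 0.21 ± 0.0417 (adjusted p = 0.000156) and 0.18 ± 0.0417 (adjusted p = 0.00128), and MBD3, of the NuRD complex, by 0.25 ± 0.0360 (adjusted p = 1.61e-06) and 0.31 ± 0.0360 (adjusted p = 1.68e-08). CBX5, heterochromatin protein 1 alpha, fell at 2 mM by 0.23 ± 0.0467 (adjusted p = 0.000204). Glutamine raised it by 0.25 ± 0.0467 (adjusted p = 0.000193) without the drug and by 0.44 ± 0.0467 (adjusted p = 2.21e-08) in drug-treated cells. The difference between its drug responses was not called (0.19, adjusted p = 0.134). Under the drug CBX3 went the other way, called higher at 2 and 40 mM (0.09 and 0.14). HDAC1 (0.13 and 0.09) and RBBP7 (0.20 and 0.13) were also called higher at both. MTA1 (-0.17 and -0.16) and ATRX (-0.13 and -0.15) were called lower at both. GATAD2A was called at 2 mM only (0.19), and CHD3 (0.20), MORC2 (0.15) and SMARCAD1 (-0.14) at 40 mM only. The difference between the drug responses was called for 4 of the 31 genes, 12.9% against 3.15% of genes of the same level. For UHRF1 the drug response was smaller at 40 mM, by 0.32 ± 0.0517 (adjusted p = 0.000354). The response at 40 mM was also lower for TRIM28 (-0.21, adjusted p = 0.0125) and GATAD2A (-0.20, adjusted p = 0.0126), and higher for MORC2 (0.24, adjusted p = 0.0475). Over the 20 alternative settings 0 to 2 were higher and 1 to 3 lower. Of the other zinc finger families, 18 ZFP genes gave 0 rises and 8 falls (44.4%) with the drug at 2 mM, where 17.5% of all genes tested were higher and 17.1% lower, and 4 falls were left without replicate 1 at 2 mM without the drug or replicate 2 at 2 mM with it and 5 without replicate 3 of the latter. Among 38 ZBTB genes 2 rose (5.26%) and 11 fell (28.9%), and the 2 became 1 without replicate 1 at 2 mM without the drug or replicate 2 at 2 mM with it. Among 23 ZSCAN and ZKSCAN genes 1 rose (4.35%) and 4 fell (17.4%), with 0 to 2 rises and 3 to 5 falls over the 20 alternative settings, the rise being lost without replicate 1 at 2 mM without the drug or replicate 3 at 2 mM with it.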

How the data were processed

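The authors deposited 1 table of log2 values for 15090 gene symbols in 12 libraries, with library names per the file headers that match the sample titles. Read from the values, each deposited log2 value is log2(RPM + 1), where RPM is scaled reads per 1000000, and 100% of values were whole reads within 0.05 read. Scaling factors between libraries ran from 0.979 to 1.03, with 1.03 in each of the 3 libraries at 40 mM with the drug. For the aligner, counter, strand setting and genome build, the sources used here give nothing. Testing was limited to the 12789 genes with 1 RPM or more in at least 3 of the 12 libraries.

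Linear models with 1 mean per group were fitted to these values in limma 3.58.1 under R 4.3.3. Variances were moderated by empirical Bayes with a trend on mean level. Tests were two-sided, p-values were adjusted by the Benjamini-Hochberg method across the genes tested, and adjusted p below 0.05 was called. The procedure was tested on simulated data. Glutamine levels were compared in untreated and in treated cells, the drug was compared with none at either glutamine level, and the drug responses were compared with each other. Fold changes on the log2(RPM + 1) scale understate those of low genes.

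The members and lists were chosen with earlier results of these data known. Named genes are the 6 members with the largest rise and the 6 with the largest fall in a pairwise comparison, called and with no overlap between groups, the 6 smallest p of the difference between responses, the 3 highest and 3 lowest by level, and a list of members with a role of their own. The relatives of ZNF107 (non-members included), ZNF33B and ZNF780B were named after their values were seen. Transcript features came from GENCODE release 29, matched for 161 of 161 members, gene order and promoters from RefSeq (GRCh38.p14). Fingers were counted as 2 cysteines, 2 to 4 residues apart, and 2 histidines, 3 to 5 apart, with 12 residues between the pairs. Within groups, chi-square over its degrees of freedom was 2.38 to 5.64 for every pair of libraries, so none matched within sampling noise. Alternatives were quantile normalization, library sums without scaling, no filter, a pseudocount of 0.25, voom weights on recovered reads, robust moderation, a replicate block, taking out the trend on GC content, length and level, and leaving out each library.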

Additional observations from a re-analysis of the deposited data

Results flagged for a closer look

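The drug response of 3 zinc finger genes differed between 2 and 40 mM glutamine by the test of the difference itself, and each value below is the response at 40 mM minus that at 2 mM. ZNF91, the KRAB gene that silences SVA elements, gave 0.39 ± 0.0940 (SE, limma adjusted p = 0.0187), and ZNF780A gave 0.44 ± 0.105 (adjusted p = 0.0168). ZNF395 gave -0.24 ± 0.0570 (adjusted p = 0.0155). Each of these calls was lost on leaving out at least 1 library, as given beside the results of these genes.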

How the results depend on the processing

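Counts of members called were recomputed under 20 settings, 12 of them leaving out 1 library. For glutamine without the drug, 11 were higher (8 to 13 on leaving out a library) and 4 lower (0 to 4). For glutamine with the drug, 27 were higher (15 to 27) and 8 lower (4 to 9). For the drug at 2 mM, 17 were higher (11 to 17) and 40 lower (30 to 42). At 40 mM, 11 were higher (9 to 12) and 24 lower (19 to 28). For the difference between responses, 2 were higher (0 to 3) and 1 lower (0 to 2). Library sums without the scaling factors gave 19 higher and 1 lower for glutamine without the drug, 4 lower with it, 20 higher for the drug at 40 mM, and 4 higher and 0 lower for the difference. Without these factors the median change of all genes tested was 0.02, 0.05, 0.01 and 0.03 in the 4 pairwise comparisons in the order above. With the trend on level, GC content and length removed, 8 were lower for glutamine without the drug and 3 with it. Otherwise the settings that keep every library held each count within 1.5 times. Leaving out a library moved several counts further, as the ranges above show. With the replicate block the counts were 11 and 4, 26 and 9, 17 and 40, 12 and 25, and 2 and 1 in the order above, although same-numbered libraries of different groups shared only a number (18 correlations of residuals from -0.0768 to 0.0480). Of 295 values of named genes, 90 were called, 43 of these in every setting and 47 lost in at least 1, and 30 others were called in at least 1 setting, while 0 reversed. Count models planned as alternatives were not run, because the deposited unit is a log2 value, and limma with voom weights on whole reads was run instead. The cause was not tested. With a median SE of 0.0704 for members in a pairwise comparison, changes of that size were below what the test could call.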
